A study of Mus musculus with 8 samples.

Results

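The transcripts described are those of 10 genes of the circadian clock and its direct output, chosen by name and not by a threshold on measured values: *Clock*, *Arntl*, *Per1*, *Per2*, *Cry1*, *Cry2*, *Nr1d1*, *Nr1d2*, *Rora* and *Dbp*. They are 10 of 50615 genes in the expression table, and all 10 were among the 17625 genes with enough counts to be tested. They were measured by poly(A) RNA sequencing of bone marrow-derived macrophages (BMDMs), differentiated for 6 days in 20 ng/ml of M-CSF, the growth factor that turns marrow cells into macrophages. Every mouse was on a C57BL/6 background and carried floxed *Ncoa6* on both chromosomes (*Ncoa6* fl/fl). *Ncoa6* encodes a nuclear receptor coactivator. *Ncoa6*-KO mice also carried LysM Cre, which is expressed from the lysozyme locus *Lyz2* and acts in myeloid cells, while *Ncoa6*-sufficient mice had no Cre. Cells of either genotype stayed in medium alone or were primed for 4 h with 100 ng/ml of LPS before 2 h with 200 µg/ml of monosodium urate (MSU) crystals. There were 2 libraries per group in the 4 groups, and the mice within a genotype differed, but whether the medium and LPS + MSU cultures came from the same mice was not given. The p-values thus rest on few animals, and an exact permutation test of 2 against 2 could not go below 0.333. The age and sex of the mice and the time of day of harvest were not given in the sources used here.

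The circadian clock is a transcriptional feedback loop found in most mammalian cells, macrophages included. CLOCK and BMAL1, the product of *Arntl*, bind E-box elements and activate the *Per*, *Cry*, *Nr1d* and *Dbp* genes, after which PER and CRY proteins repress their own activators. In a connected loop, the nuclear receptors REV-ERBα and REV-ERBβ (*Nr1d1* and *Nr1d2*) repress *Arntl* and RORα (*Rora*) activates it through shared response elements, and DBP carries the rhythm to further genes through D-box elements.

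Promoter stretches that hold these elements are shown because they are the letters through which the loop is known to be wired. Windows of 300 bases around the annotated transcription starts (RefSeq, GRCm38.p6) were at hand for 9 of the 10 clock genes, in 13 windows. They were searched on both strands for the E-box CACGTG, the D-box TTATGTAA or TTACGTAA, the core TAGGTCA or TGGGTCA of the response element shared by REV-ERB and ROR, and the cAMP response element TGACGTCA. E-boxes were found in 2 of the 13 windows, 1 each of *Per1* and *Cry1*, against 7.15% of all 32851 mouse windows. The ROR core was found in 1 of the 13, of *Arntl*, against 6.45% of all windows, and the D-box and the cAMP response element in none, against 1.06% and 1.79%. Capitals mark the element, and each stretch is given 5′ to 3′ on the strand of its gene.
Per1 E-box, chr11:69098766-69098805, forward strand: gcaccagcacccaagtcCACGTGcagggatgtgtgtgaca
Cry1 E-box, chr10:85185092-85185131, reverse strand: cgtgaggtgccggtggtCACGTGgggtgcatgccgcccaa
Arntl ROR core, chr7:113207530-113207559, forward strand: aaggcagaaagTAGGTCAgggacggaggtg
The *Per1* and *Cry1* elements began 166 and 60 bases upstream of the start on which their window is set. The *Arntl* core began at base 31 of the transcribed side, counting the start as base 1. In a GENCODE annotation *Per1* runs from 69095217 to 69109960, so its element lies inside the gene, upstream of an internal start. A match describes these letters and was not tested as a binding site.

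Libraries held between 25281955 and 33673552 expected counts. Values are given as normalized counts, which are counts divided by the edgeR scaling factor and brought to the mean library size. *Ncoa6* was at 1515 and 1405 normalized counts in *Ncoa6*-sufficient BMDMs with medium alone against 784 and 622 in *Ncoa6*-KO BMDMs, and with LPS + MSU at 1297 and 1173 against 563 and 526. Only part of *Ncoa6* is floxed and the values cover the whole gene, so they check the labels in part. All 8 macrophage markers examined were present, with a summed level between 248900 and 577700 normalized counts, while each of 3 B cell, 5 T and NK cell and 3 dendritic cell markers stayed under 10 in every library. With LPS + MSU the summed level of 6 neutrophil markers went from 245 to 299 up to 465 to 592, and that of 4 stromal markers reached 325 to 889 from 133 to 439. The summed level of 4 proliferation markers went from 30490 to 30520 down to 10470 to 12980 with LPS + MSU in *Ncoa6*-sufficient BMDMs. In *Ncoa6*-KO BMDMs it went from 24620 to 25960 down to 8849 to 9460. All 4 genes were called lower in both genotypes, against 30.5% and 27.9% of all genes tested. The part of these changes in the results that follow was not tested, and in bulk RNA fewer cells that express a gene and less RNA per cell cannot be told apart.

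**Figure D1:**
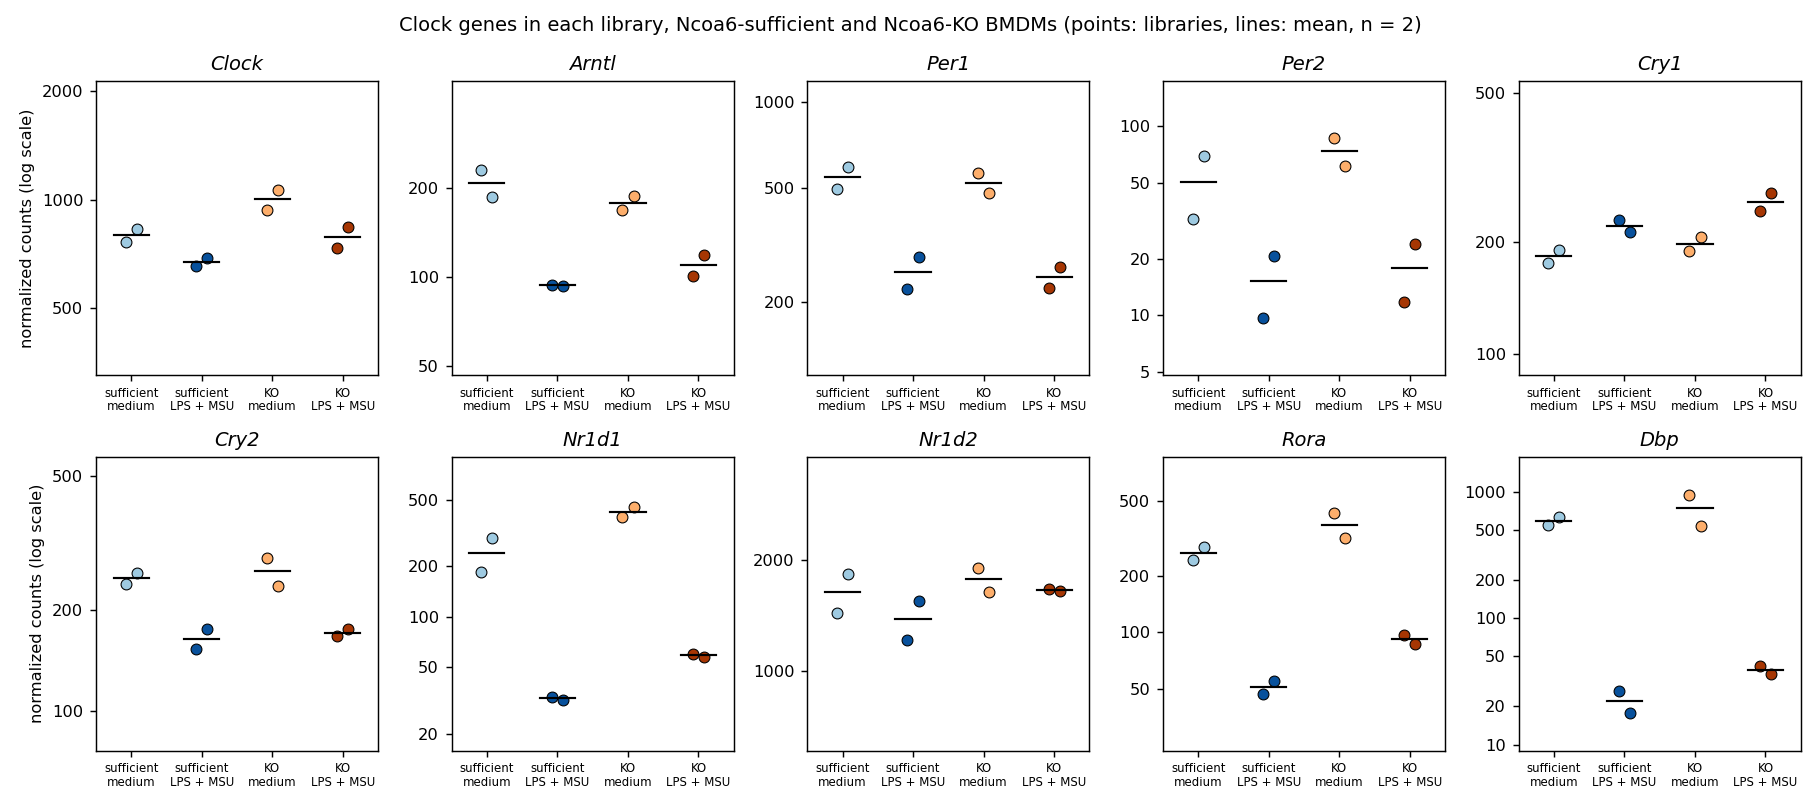
Normalized counts (log scale) of the 10 clock genes in each library of the 4 groups. Points are libraries and lines are means (n = 2). *Dbp* shows the widest gap between the means of medium alone and LPS + MSU in both genotypes and *Nr1d1* the next, while *Nr1d2* libraries of both conditions overlap.

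The response to LPS + MSU was examined first in the positive limb of the loop. *Arntl* was at 229 and 186 normalized counts with medium alone and at 94.2 and 93.6 with LPS + MSU in *Ncoa6*-sufficient BMDMs. *Ncoa6*-KO BMDMs had 169 and 187 unstimulated and 100.6 and 119 stimulated. Stimulated and unstimulated libraries did not overlap, and *Arntl* fell in both genotypes, with a log2 fold change of -1.14 ± 0.18 (SE, edgeR adjusted p = 0.000199) in *Ncoa6*-sufficient and -0.70 ± 0.17 (adjusted p = 0.00565) in *Ncoa6*-KO BMDMs. The second of these calls was lost without the *Ncoa6*-KO LPS + MSU library 1 (edgeR adjusted p = 0.0524). *Clock*, which encodes the partner of BMAL1, was at 762 and 831 normalized counts with medium alone and at 654 and 687 with LPS + MSU in *Ncoa6*-sufficient BMDMs, and at 938 and 1065 against 734 and 842 in *Ncoa6*-KO BMDMs. The shift in *Clock* was small in both genotypes. Its log2 fold change was -0.25 ± 0.11 (edgeR adjusted p = 0.0777) in *Ncoa6*-sufficient BMDMs, which did not pass the test, and -0.34 ± 0.11 (adjusted p = 0.0193) in *Ncoa6*-KO BMDMs. The latter call was lost without the medium library 2 or the LPS + MSU library 1 of that genotype (edgeR adjusted p = 0.123 and 0.146) and with DESeq2 (adjusted p = 0.0918).

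Among the repressors, both *Per* genes fell and the *Cry* genes divided. *Per1*, a light- and stress-inducible period gene, was at 498 and 592 normalized counts with medium alone and at 223 and 288 with LPS + MSU in *Ncoa6*-sufficient BMDMs. *Ncoa6*-KO BMDMs had 564 and 479 against 225 and 264. The groups did not overlap, and the fall was of nearly equal size in both genotypes, with log2 fold changes of -1.09 ± 0.16 (edgeR adjusted p = 0.000121) and -1.10 ± 0.16 (adjusted p = 0.000129). *Per2* had the lowest counts of the 10 genes, with 43 and 81 expected counts in *Ncoa6*-sufficient BMDMs with medium alone but 7 and 15 with LPS + MSU. On the normalized scale these were 32.3 and 69.7 against 9.70 and 20.7, and *Ncoa6*-KO BMDMs had 86.9 and 61.5 against 11.8 and 23.8. *Per2* libraries did not overlap between conditions, but replicates differed more than 2-fold in 3 of the 4 groups. The log2 fold change of *Per2* was -1.73 ± 0.51 (edgeR adjusted p = 0.0131) in *Ncoa6*-sufficient BMDMs and -2.07 ± 0.48 (adjusted p = 0.00346) in *Ncoa6*-KO BMDMs. In *Ncoa6*-sufficient BMDMs the call was lost without the medium library 2, which left -1.08 (edgeR adjusted p = 0.124), or without the LPS + MSU library 1, which left -1.24 (adjusted p = 0.118).

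*Cry2*, a cryptochrome repressor, was at 239 and 258 normalized counts with medium alone and at 152 and 175 with LPS + MSU in *Ncoa6*-sufficient BMDMs, and at 286 and 235 against 167 and 175 in *Ncoa6*-KO BMDMs. *Cry2* fell without overlap between conditions, by 0.60 (SE 0.15, edgeR adjusted p = 0.00575) and by 0.61 (SE 0.15, adjusted p = 0.00522) on the log2 scale. The call in *Ncoa6*-sufficient BMDMs was lost with DESeq2 (adjusted p = 0.0607) and without the LPS + MSU library 1 (edgeR adjusted p = 0.0704). *Cry1*, its paralog, whose window holds the E-box printed above, was at 176 and 190 normalized counts with medium alone and at 229 and 212 with LPS + MSU in *Ncoa6*-sufficient BMDMs, and at 189 and 206 against 242 and 270.0 in *Ncoa6*-KO BMDMs. All 4 stimulated libraries lay above the 4 unstimulated ones. The log2 fold change of *Cry1* was 0.27 ± 0.14 (edgeR adjusted p = 0.124) and 0.37 ± 0.14 (adjusted p = 0.0387), and its sign depended on the scaling, since with the total count per library in place of edgeR's factors it was -0.40 (adjusted p = 0.0298) and -0.26. Of 17 alternative analyses, *Cry1* passed the test in *Ncoa6*-KO BMDMs in 8.

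The nuclear receptors showed wide differences between close relatives. *Nr1d1*, encoding the heme-binding repressor REV-ERBα, was at 184 and 293 normalized counts with medium alone and at 33.2 and 31.7 with LPS + MSU in *Ncoa6*-sufficient BMDMs. The *Ncoa6*-KO values were 395 and 451 against 60.1 and 57.4. The lowest unstimulated library thus had 3 times the counts of the highest stimulated one, and *Nr1d1* was 7.30-fold lower in *Ncoa6*-sufficient (log2 fold change -2.87 ± 0.26, edgeR adjusted p = 2.88e-06) and 7.18-fold lower in *Ncoa6*-KO BMDMs (-2.84 ± 0.23, adjusted p = 1.23e-06). *Nr1d2*, encoding REV-ERBβ, was at 1437 and 1837 against 1219 and 1547 normalized counts in *Ncoa6*-sufficient BMDMs and at 1909 and 1644 against 1672 and 1651 in *Ncoa6*-KO BMDMs. The libraries of both conditions overlapped in each genotype. The 95% confidence interval of the log2 fold change of *Nr1d2* was -0.55 to 0.07 (edgeR adjusted p = 0.171) and -0.41 to 0.21 (adjusted p = 0.591), so neither interval reached the fall of *Nr1d1*. *Rora*, encoding the activator that uses the same response element, was at 244 and 284 against 47.1 and 55.1 normalized counts in *Ncoa6*-sufficient BMDMs, and at 429 and 316 against 96.7 and 86.7 in *Ncoa6*-KO BMDMs. The groups lay far apart, and *Rora* fell 5.15-fold (log2 fold change -2.36 ± 0.21, edgeR adjusted p = 2.23e-06) and 4.06-fold (-2.02 ± 0.19, adjusted p = 3.82e-06).

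*Dbp*, the PAR bZIP output factor, had the largest fall of the 10 genes in both genotypes. It was at 546 and 629.7 normalized counts with medium alone and at 26.3 and 17.9 with LPS + MSU in *Ncoa6*-sufficient BMDMs. *Ncoa6*-KO BMDMs had 949.6 and 533 unstimulated and 41.8 and 36.4 stimulated. The lowest unstimulated library was thus more than 10 times the highest stimulated one, although the unstimulated *Ncoa6*-KO libraries differed between themselves. *Dbp* was 26.4-fold lower in *Ncoa6*-sufficient (log2 fold change -4.72 ± 0.33, edgeR adjusted p = 3.52e-07) and 18.9-fold lower in *Ncoa6*-KO BMDMs (-4.24 ± 0.30, adjusted p = 3.80e-07). After stimulation the *Dbp* values rested on 13 to 32 expected counts per library.

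In sum over the 10 genes, 7 were called lower and 0 higher with LPS + MSU in *Ncoa6*-sufficient BMDMs, where 30.5% of all genes tested were called lower, 24.7% higher and 55.2% in either direction. In *Ncoa6*-KO BMDMs 8 were called lower and 1 higher, against 27.9% and 25.2% of all genes and 53.1% in either direction. Both stimulated libraries lay below both unstimulated ones for 8 of 10 genes in each genotype, against 43.5% and 41.1% of all genes, and above them for 1 (*Cry1*), against 35.1% and 35.4%. The median log2 fold change of the 10 genes was -1.12 and -0.90, and that of all genes tested was -0.12 and -0.07. The scaling moved all genes together: edgeR's factors were 0.766 to 0.829 in stimulated and 1.23 to 1.29 in unstimulated libraries, and with the total count per library the median of all genes was -0.78 and -0.71. With that scaling all 10 clock genes were called lower in *Ncoa6*-sufficient BMDMs, 9 were in *Ncoa6*-KO BMDMs, and 0 were called higher. With DESeq2's size factors 7 were called lower and 1 higher in *Ncoa6*-sufficient BMDMs. The share of higher genes among all calls in *Ncoa6*-sufficient BMDMs was 44.8%, and 20.6% with the total count. The same share for *Ncoa6*-KO BMDMs was 47.5%, and 21.4% with the total count. *Dbp*, *Nr1d1*, *Rora* and *Per1* were called lower in both genotypes under all 17 alternatives, as were *Arntl* in *Ncoa6*-sufficient and *Per2* and *Cry2* in *Ncoa6*-KO BMDMs.

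**Figure D2:**
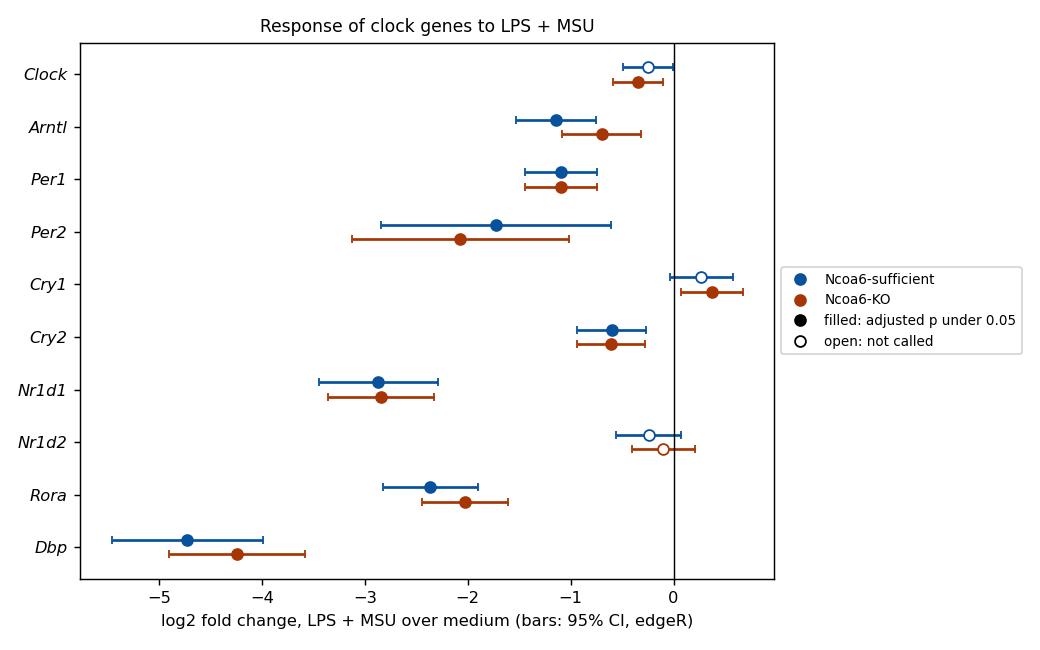
Log2 fold change of each clock gene, LPS + MSU over medium alone, in *Ncoa6*-sufficient and *Ncoa6*-KO BMDMs. Points are edgeR estimates and bars are 95% confidence intervals, with filled points for an adjusted p under 0.05. *Dbp* stands at -4.72 and -4.24, *Cry1* alone lies right of 0, and both *Nr1d2* points are open.

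Some of these genes share exonic bases with a neighbor on the opposite strand, and whether the counting used strand was not given in the sources used here. In a GENCODE annotation of GRCm38, *Dbp* (chromosome 7, 45705088 to 45710203, forward strand) shared 539 bases, or 18.0% of its exons, with *Sphk2*, and *Nr1d1* (chromosome 11, 98767932 to 98775333, reverse strand) shared 263 bases, or 8.55%, with *Thra*. *Sphk2* was higher with LPS + MSU, the opposite direction to *Dbp*, with log2 fold changes of 0.39 (edgeR adjusted p = 0.0114) and 0.43 (adjusted p = 0.00643), while *Thra* was lower, as *Nr1d1* was, at -1.23 in both genotypes (adjusted p = 9.57e-05 and 0.000103). *Cry2* shared 295 bases (4.67%) with *D930015M05Rik*, and *Arntl* and *Rora* shared 33 and 82 bases with transcripts that had no counts.

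Levels between genes were compared per kilobase of exon. In *Ncoa6*-sufficient BMDMs with medium alone *Nr1d2* was highest (303 ± 52.4 normalized counts per kilobase, SD, n = 2), followed by *Dbp* (196 ± 19.9), *Per1* (96.8 ± 11.7), *Nr1d1* (77.6 ± 25.1), *Clock* (58.0 ± 3.56), *Cry1* (54.8 ± 3.07), *Cry2* (39.3 ± 2.17), *Arntl* (27.6 ± 4.05), *Rora* (20.2 ± 2.16) and *Per2* (8.71 ± 4.52). Of these neighbors, *Per1* and *Nr1d1*, *Nr1d1* and *Clock*, and *Clock* and *Cry1* overlapped between libraries. With LPS + MSU *Nr1d2* stayed highest per kilobase (256 ± 42.8) while *Dbp* dropped from rank 2 to rank 8 (7.39 ± 1.99), and *Cry1* came to rank 2 (66.0 ± 3.495). *Nr1d2* also led per kilobase in *Ncoa6*-KO BMDMs (328 ± 34.7 unstimulated, 307 ± 2.69 stimulated). *Dbp* held rank 2 there with medium alone (248 ± 98.4), where it overlapped *Nr1d2*, and rank 8 with LPS + MSU (13.1 ± 1.29), and *Per2* was at rank 10 in all 4 groups.

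Genotypes were compared next, from the values given above. With medium alone, *Nr1d1* had the largest difference, with both *Ncoa6*-KO libraries above both *Ncoa6*-sufficient ones. Its log2 fold change was 0.83 ± 0.19, with a 95% confidence interval of 0.41 to 1.25, and edgeR's p of 0.00122 became 0.0569 after adjustment over all genes tested, just outside the threshold. *Rora* (0.50 ± 0.16, edgeR adjusted p = 0.187) and *Clock* (0.33 ± 0.11, adjusted p = 0.179) also had both *Ncoa6*-KO libraries above the others and did not pass. No clock gene was called by edgeR, where 1.88% of all genes were, and 3 of 10 had an unadjusted p under 0.05, against 12.8% of all genes. Both *Ncoa6*-KO libraries lay above both others for 3 genes, against 18.6% of all genes, and below them for 0, against 24.5%. The estimate was positive for 8 of 10 genes, with a median of 0.22 beside -0.03 for all genes. Of 16 alternative analyses, 5 called *Nr1d1* with medium alone. Among them were DESeq2 and limma-voom (log2 fold change 0.85, adjusted p = 0.0372, and 0.87, adjusted p = 0.0351). *Nr1d1* was also called without the *Ncoa6*-sufficient medium library 2, at 1.201 (edgeR adjusted p = 0.0327), and its estimate reached down to 0.53 when other libraries were left out.

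With LPS + MSU the same 2 nuclear receptors and *Dbp* had the largest differences between genotypes. *Nr1d1* had a log2 fold change of 0.85 ± 0.32 (edgeR adjusted p = 0.187), *Rora* of 0.84 ± 0.24 (adjusted p = 0.0854) and *Dbp* of 0.82 ± 0.48 (adjusted p = 0.422). The 95% confidence interval was 0.32 to 1.37 for *Rora* and -0.23 to 1.87 for *Dbp*. The *Nr1d1* estimate rested on 24 and 23 expected counts in stimulated *Ncoa6*-sufficient and 46 and 41 in stimulated *Ncoa6*-KO BMDMs. No clock gene was called by edgeR, DESeq2 or limma-voom, where edgeR called 3.59% of all genes (54.6% of the calls higher, and 68.8% with the total count per library), and 2 clock genes had an unadjusted p under 0.05, against 17.4% of all genes. Both *Ncoa6*-KO libraries lay above both *Ncoa6*-sufficient libraries for 7 of 10 genes and below them for 0, against 24.7% and 22.7% of all genes. The 10 genes belong to 1 loop and were read in the same libraries, so they are not independent. All such counts of the 10 genes, in each comparison, are descriptions and not separate observations. The estimate was positive for 9 of 10 genes with a median of 0.23 beside 0.00 for all genes, and for all 10 with the total count per library, where *Per1* was at 0.01. *Rora* was called without the *Ncoa6*-KO medium library 2 (0.84, edgeR adjusted p = 0.0451). For *Per1*, *Cry1*, *Cry2* and *Nr1d2* both genotype estimates were at most 0.26 in size on the log2 scale, and the widest bound of their 95% confidence intervals was 0.58.

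Whether the response to LPS + MSU differed between genotypes was tested by the interaction. It was called for 0 of the 10 genes by edgeR, DESeq2 and limma-voom and for 0% of all genes by edgeR, and 0 of 10 had an unadjusted p under 0.05, against 5.93% of all genes. The lowest adjusted p was 0.891, for *Arntl* (0.45 ± 0.25), and the estimate for *Dbp* was 0.48 with a 95% confidence interval of -0.67 to 1.64. The comparison between genotypes with each condition also held differences in other markers. Of 8 macrophage markers, 3 were called lower in unstimulated and 3 in stimulated *Ncoa6*-KO BMDMs, and of 4 proliferation markers 1 and 3 were. Of all 17625 genes tested, 230 and 287 were called lower. The macrophage markers called in both conditions were *Lyz2* and *Fcgr1*. *Lyz2*, the locus that carries the Cre, had log2 fold changes of -1.01 (edgeR adjusted p = 0.0172) and -0.95 (adjusted p = 0.0142). *Fcgr1* had -2.05 (edgeR adjusted p = 0.0115) and -1.38 (adjusted p = 0.0353). All 8 macrophage markers had negative estimates in both conditions. The part of these markers in the genotype values was not tested.

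**Figure D3:**
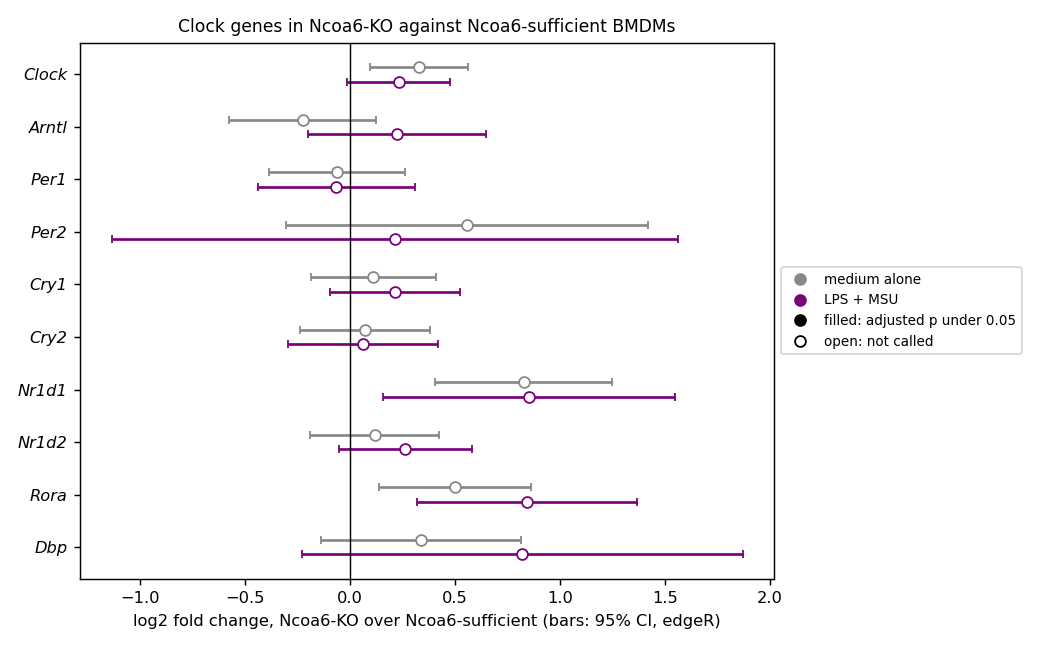
Log2 fold change of each clock gene, *Ncoa6*-KO over *Ncoa6*-sufficient, with medium alone and with LPS + MSU. Points are edgeR estimates and bars are 95% confidence intervals. All points are open because none passed an adjusted p of 0.05, and the bars of *Nr1d1* (0.41 to 1.25 with medium alone) and *Rora* lie right of 0 in both conditions.

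The median difference between replicates was larger for the 10 clock genes than for the genes whose mean reached 50 normalized counts. The median absolute log2 difference between the 2 libraries of a group was 0.233, 0.209, 0.225 and 0.177 for the 10 genes in the sufficient medium, sufficient LPS + MSU, KO medium and KO LPS + MSU groups. It was 0.111, 0.135, 0.142 and 0.133 over the 11219 genes whose mean reached 50 normalized counts. That cutoff was not applied to the clock genes, and the sets were not matched for counts. *Per2* had 7 and 15 and *Dbp* 19 and 13 expected counts in stimulated *Ncoa6*-sufficient BMDMs. The part of low counts in this difference was not tested. In the *Ncoa6*-sufficient medium group library 2 was the higher for 9 of 10 clock genes, *Arntl* being the exception, while it was the higher for 43.6% of those 11219 genes. In the *Ncoa6*-KO medium group library 1 was the higher for 6 of 10.

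Other genes of the loop and its output were examined as a list of 17, of which 14 had enough counts to be tested. With LPS + MSU, 9 of the 14 tested were called lower and 4 higher in *Ncoa6*-sufficient BMDMs (median log2 fold change -1.97), against 30.5% and 24.7% of all genes tested. The counts were the same in *Ncoa6*-KO BMDMs (median -1.39), against 27.9% and 25.2%. *Bhlhe40*, which encodes the E-box repressor DEC1, fell from 532 and 600.4 to 74.8 and 85.4 normalized counts in *Ncoa6*-sufficient BMDMs (log2 fold change -2.82, edgeR adjusted p = 9.80e-08) and from 807 and 813 to 149 and 208 in *Ncoa6*-KO BMDMs (-2.18, adjusted p = 3.30e-07). *Per3*, a further period gene, fell from 171 and 251 to 20.8 and 52.3 (-2.52, edgeR adjusted p = 0.000198), a value that ran to -3.28 without the LPS + MSU library 2. *Usp2*, a deubiquitinase under clock control, fell from 86.3 and 98.1 to 13.9 and 19.3 (-2.47, edgeR adjusted p = 6.22e-05). These falls were shared by *Npas2*, the paralog of *Clock*, which had 61 and 50 expected counts with medium alone against 2 and 1 with LPS + MSU in *Ncoa6*-sufficient BMDMs (edgeR adjusted p = 2.97e-05), and 139 and 83 against 1 and 0 in *Ncoa6*-KO BMDMs (adjusted p = 2.07e-06). *Nampt*, the NAD salvage enzyme, rose from 3695 and 3539.8 to 25537 and 22554 normalized counts (2.73, edgeR adjusted p = 1.65e-08).

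Further members of that list, named after their values were seen, went in both directions. *Tef*, which encodes a PAR bZIP factor related to DBP, fell from 1431 and 1576 to 248 and 337 normalized counts in *Ncoa6*-sufficient BMDMs (log2 fold change -2.36, edgeR adjusted p = 1.73e-07). *Nfil3*, which encodes the repressor that competes with those factors for the D-box, rose from 131 and 145 to 745 and 562 (2.24, edgeR adjusted p = 5.29e-06). *Tef* and *Nfil3* moved in opposite directions in both genotypes (*Tef* -2.06, *Nfil3* 1.88 in *Ncoa6*-KO BMDMs, edgeR adjusted p = 3.89e-07 and 3.64e-05). *Noct*, the clock-controlled gene nocturnin, rose as well, from 209 and 280.4 to 982 and 989 normalized counts (2.01, edgeR adjusted p = 5.20e-06).

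Stretches of the promoters of these genes are given in the same form, for some of the genes that held an element. Windows were at hand for 14 of the 17 genes, in 17 windows. Of the 14 genes, 4 held an E-box, 2 a D-box, 1 the ROR core and 1 the cAMP response element. Of all 32851 mouse windows, 7.15%, 1.06%, 6.45% and 1.79% held these elements. Those shares are per window, while a gene with more than 1 window has more room for a match.
Bhlhe41 E-box, chr6:145865551-145865590, reverse strand: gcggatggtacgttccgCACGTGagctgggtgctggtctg
Cipc E-box, chr12:86947309-86947342, forward strand: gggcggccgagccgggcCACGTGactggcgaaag
Tef E-box, chr15:81802529-81802568, forward strand: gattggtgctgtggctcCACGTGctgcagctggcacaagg
Per3 D-boxes, chr4:151044799-151044887, reverse strand: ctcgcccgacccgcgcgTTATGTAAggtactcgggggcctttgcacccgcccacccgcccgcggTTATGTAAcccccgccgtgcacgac
Nfil3 ROR core on the opposite strand, chr13:52981040-52981068, reverse strand: agcgcggcgctcggaacTGACCTActaac
The *Nfil3* core lies 12 bases upstream of the start and the pair of *Per3* D-boxes 205 and 158 bases upstream. A second window of *Tef*, not printed, held a further E-box 138 bases upstream. Elements of *Ciart*, *Timeless* and *Hlf* are not printed either. *Ciart* held E-boxes 116, 58 and 44 bases upstream. It was not called with LPS + MSU in either genotype (log2 fold change -0.35 and -0.60, edgeR adjusted p = 0.316 and 0.0785). Whether any element is used in these cells was not measured.

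Between genotypes, 0 of these 14 genes were called with medium alone by edgeR, against 1.88% of all genes, and 7 had an unadjusted p under 0.05, against 12.8%. The lowest adjusted p by edgeR was 0.0891, for *Bhlhe40*, which limma-voom called (adjusted p = 0.0412). With LPS + MSU 4 of the 14 were called, against 3.59% of all genes. *Bhlhe41*, which encodes DEC2, was at 1081 and 1658 normalized counts in stimulated *Ncoa6*-KO BMDMs against 366 and 614 in stimulated *Ncoa6*-sufficient BMDMs (log2 fold change 1.48 ± 0.24, edgeR adjusted p = 0.0104). *Bhlhe40* was higher by 1.15 ± 0.19 (edgeR adjusted p = 0.0104) and *Cipc*, which encodes a CLOCK-interacting repressor, by 0.53 ± 0.11 (adjusted p = 0.0331). *Nfil3* was the only one lower, at 438 and 266 normalized counts against 745 and 562 (-0.89 ± 0.21, edgeR adjusted p = 0.0449). In each case both *Ncoa6*-KO libraries lay on one side of both *Ncoa6*-sufficient libraries, but all 4 calls were lost when single libraries were left out. Without the *Ncoa6*-sufficient LPS + MSU library 1 the edgeR adjusted p was 0.0951 for *Bhlhe41*, 0.116 for *Bhlhe40*, 0.264 for *Cipc* and 0.328 for *Nfil3*, and without the *Ncoa6*-KO LPS + MSU library 2 it was 0.105, 0.0989, 0.162 and 0.286. *Bhlhe41* and *Bhlhe40* kept their calls under every alternative other than leaving single libraries out, but *Cipc* and *Nfil3* did not. The fall of *Bhlhe41* with LPS + MSU was -2.13 for *Ncoa6*-sufficient and -1.16 for *Ncoa6*-KO BMDMs, and the interaction, 0.97 ± 0.32, did not pass (edgeR adjusted p = 0.682).

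**Figure D4:**
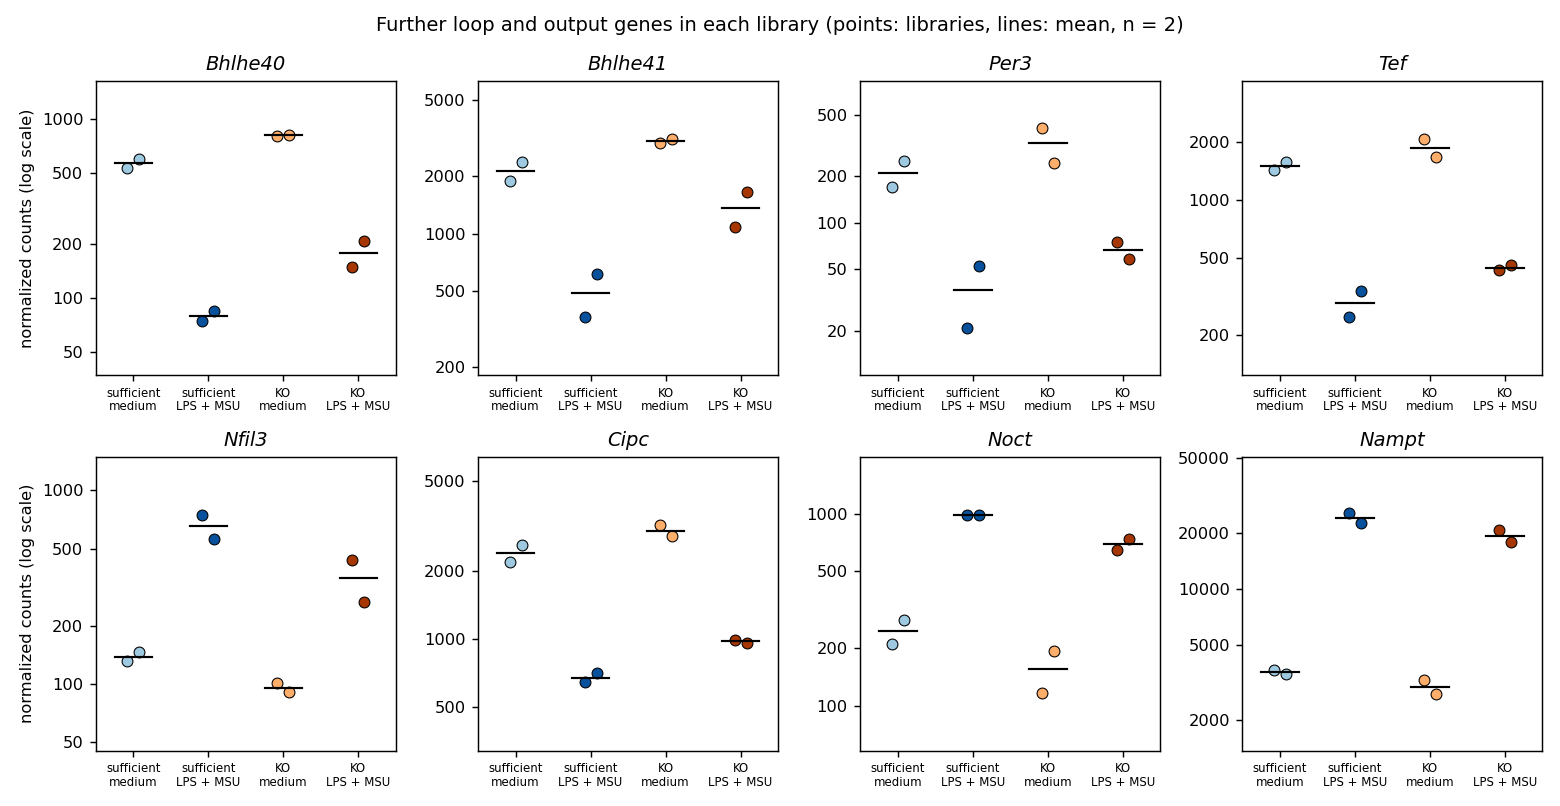
Normalized counts (log scale) of 8 further loop and output genes in each library of the 4 groups. Points are libraries and lines are means (n = 2). With LPS + MSU *Nampt*, *Nfil3* and *Noct* are higher and the other 5 genes lower, and both stimulated *Ncoa6*-KO libraries of *Bhlhe40* and *Bhlhe41* lie above both stimulated *Ncoa6*-sufficient ones.

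Kinases, ubiquitin ligases and cofactors that act on clock proteins went in both directions. Of 15, all tested, 5 were called higher and 3 lower with LPS + MSU in *Ncoa6*-sufficient BMDMs (median log2 fold change 0.09), against 24.7% and 30.5% of all genes, so that the share called was near that of all genes. In *Ncoa6*-KO BMDMs 5 were called higher and 2 lower (median 0.02), against 25.2% and 27.9%. *Fbxw11* and *Btrc*, which encode the F-box proteins that mark phosphorylated PER for degradation, had log2 fold changes of 1.90 and 0.57 (edgeR adjusted p = 5.25e-08 and 0.00185). *Csnk1d* and *Csnk1e*, which encode the PER kinases CK1δ and CK1ε, were at 0.55 and -0.92 (edgeR adjusted p = 0.00121 and 2.52e-05). *Nono*, which encodes a PER-binding RNA-binding protein, was at 1.24 (edgeR adjusted p = 1.46e-06). With the total count per library *Csnk1d*, *Btrc* and *Csnk1a1* turned to -0.13, -0.10 and -0.13, while *Fbxw11* and *Nono* kept their sign in both genotypes. None of the 15 was called between genotypes by edgeR, where 1.88% of all genes were with medium alone and 3.59% with LPS + MSU. An unadjusted p under 0.05 was found for 1 with medium alone and 3 with LPS + MSU, against 12.8% and 17.4% of all genes.

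The last list held 6 genes that REV-ERBs are known to repress. With LPS + MSU 5 were called higher and 1 lower in both genotypes, against 24.7% higher and 30.5% lower of all genes in *Ncoa6*-sufficient BMDMs, and against 25.2% and 27.9% in *Ncoa6*-KO BMDMs. As background, all 6 are also known to respond to LPS. *Il6* had 2.25 and 0 normalized counts with medium alone but 18343 and 19961 with LPS + MSU in *Ncoa6*-sufficient BMDMs, and *Il1b* had 18.8 and 15.5 against 31995 and 29707. *Ccl2* and *Nlrp3*, a monocyte chemokine and the inflammasome sensor, rose with log2 fold changes of 5.15 and 4.09 (edgeR adjusted p = 1.17e-08 and 1.09e-09). *Cx3cr1*, the fractalkine receptor, fell from 359 and 324 to 101.1 and 74.4 normalized counts (-1.96, edgeR adjusted p = 0.000118). Between genotypes with medium alone *Mmp9*, a secreted protease, was lower by 0.67 on the log2 scale (541 and 439.6 against 293 and 327, edgeR adjusted p = 0.0245) and *Il1b* stood at 6.95 and 3.51 normalized counts against 18.8 and 15.5 (adjusted p = 0.0398). With LPS + MSU only *Il1b* of the 6 was called, at 18367 and 18637 against 31995 and 29707 (-0.74 ± 0.11, edgeR adjusted p = 0.00744). Each of these genotype calls was lost in some of the alternative analyses. *Mmp9* was lost without the *Ncoa6*-sufficient medium library 1, which left -0.50, and *Il1b* with medium alone without that same library. *Il1b* with LPS + MSU was lost without the *Ncoa6*-sufficient LPS + MSU library 1. These were not the only losses. Of 16 alternative analyses, 11 called *Mmp9* and 7 called *Il1b* with medium alone, while 14 called *Il1b* with LPS + MSU.

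*Nr1d1* was the clock gene nearest to a genotype call, and the genes whose log2 normalized counts were most like it over the 8 libraries were *Cog5* (Pearson r = 0.996), *Dalrd3* (0.996) and *Fbxo8* (0.995). These values are descriptions, since the 8 libraries fall into 4 groups that set most of the variation, and 1097 of the 11218 genes compared had an r over 0.95. *Fbxo8* was at 702 and 771 normalized counts in unstimulated *Ncoa6*-sufficient against 911 and 878 in unstimulated *Ncoa6*-KO BMDMs, and at 464 and 450.3 against 538 and 516 with LPS + MSU, a pattern of the same order and smaller range than that of *Nr1d1*.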

How the data were processed

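The authors prepared stranded poly(A) libraries (TruSeq), aligned read pairs with STAR 2.7.3a and estimated counts per gene with RSEM 1.3.3 on GRCm38. The deposited table holds unnormalized expected counts of 50615 genes in 8 libraries. They were rounded to whole numbers, and genes summing to under 10 were left out, as in the study's methods. edgeR 4.0.16 in R 4.3.3 fitted the 4 groups together with TMM factors (4 residual degrees of freedom), and the quasi-likelihood test was adjusted by the Benjamini-Hochberg method over 17625 genes and called at 0.05. Normalized counts refer to a library of 29332189, the mean effective size. Depth limits the precision of genes with few counts, such as *Per2*. The clock genes and the further lists were chosen by name, but with earlier results of these data known. All clock genes were named, every listed gene called between genotypes, and the 5 called genes per list with the largest response in *Ncoa6*-sufficient BMDMs. Likeness used log2(normalized count + 0.5) over genes with a mean of at least 50. Exons came from GENCODE M21. Alternatives were DESeq2 1.42.0, its size factors, limma-voom (limma 3.58.1), 2 other filters, replicate blocks, the 4 libraries compared alone and each library left out. The total count per library was added after seeing the data. The code was tested on simulated data.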

Additional observations from a re-analysis of the deposited data

How the results depend on the processing

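Over 2030 recomputed single-gene values, 1860 kept their direction and side of the threshold, 84 lost a call, 40 gained one and 46 changed sign. The count of clock genes called with LPS + MSU was 5 to 7 in *Ncoa6*-sufficient and 6 to 9 in *Ncoa6*-KO BMDMs when single libraries were left out, a step that leaves a group of 1 assumed to vary like the other groups, and 6 to 10 and 7 to 9 under the other alternatives. Between genotypes 0 clock genes were called. With medium alone 2 were called with no filter, 1 with DESeq2 and 1 with limma-voom, and 0 to 1 with a library left out. With LPS + MSU 2 were called with no filter and 0 to 1 with a library left out. The cause was not tested. Whether the replicate numbers pair the libraries was not given. Correlations of same-numbered deviations were 0.0418 to 0.353, and the highest, 0.283 and 0.353, were between the conditions of the same genotype. With the number as a replicate block 2 clock genes were called between unstimulated and 1 between stimulated genotypes. For the stimulus 8 and 9 were called (9 and 9 with a block within genotype). A block within genotype gives no genotype comparison, and the interaction needs all 8 libraries, so these were not run.

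Signs changed with the total count per library for *Cry1* (-0.40 and -0.26), *Csnk1d* (-0.13 and -0.18), *Btrc* (-0.10 and -0.18) and *Csnk1a1* (-0.13 and -0.12) in both genotypes, for *Timeless* in *Ncoa6*-KO BMDMs (-0.17), for *Per1* between genotypes with LPS + MSU (0.0071), and for the interactions of *Per1* (0.035) and *Cry2* (0.029). The interaction of *Nr1d1* was -0.029 with DESeq2's size factors, -0.026 with DESeq2 and -0.031 with limma-voom, and that of *Per1* was 0.0014 with a replicate block within genotype. With libraries left out, intervals that crossed 0 were, for genotype with medium alone, *Per1* -0.18 to 0.068, *Cry2* -0.076 to 0.20, *Nr1d2* -0.047 to 0.31 and *Dbp* -0.14 to 0.69. With LPS + MSU they were *Per1* -0.25 to 0.12, *Per2* -0.37 to 0.84 and *Cry2* -0.043 to 0.15, and for the stimulus in *Ncoa6*-KO BMDMs *Nr1d2* -0.20 to 0.018. For the interaction they were *Per1* -0.22 to 0.14, *Per2* -0.99 to 0.25, *Cry1* -0.020 to 0.16, *Cry2* -0.15 to 0.14, *Nr1d1* -0.35 to 0.33, *Nr1d2* -0.065 to 0.31 and *Ncoa6* -0.28 to 0.049.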
